A study of Mus musculus with 6 samples.

Results

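Genes for the subunits of the mitochondrial respiratory chain were examined on arrays of mouse double negative thymocytes, the T cell precursors that carry neither CD4 nor CD8. The members are all probe sets whose platform gene symbol starts with Nduf, Uqcr, Cox4, Cox5, Cox6, Cox7, Cox8 or Atp5, or is Sdha, Sdhb, Sdhc, Sdhd, Cyc1 or Cycs. They number 192 of 45037 probe sets. Of the 192, 184 have 1 gene symbol and stand for 92 of the 18193 genes so named, and 8 have several symbols and are counted but name no gene. The study compared 3 mice labelled as double knockouts of Egr1 and Egr3, a pair of zinc finger transcription factors that respond to pre-T cell receptor signalling, with 3 wild type mice. The descriptions number 1 animal for each array. The descriptions speak of cells sorted by flow cytometry, while the titles and source names read "Whole thymus". The RNA was amplified. The sources used here give no strain, age or sex and do not say how the knockout alleles were made.

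The respiratory chain sits in the inner mitochondrial membrane. Complex I (NADH dehydrogenase) and complex II (succinate dehydrogenase) pass electrons to coenzyme Q, complex III hands them to cytochrome c, and complex IV (cytochrome c oxidase) transfers them to oxygen. Complexes I, III and IV pump protons as they do so, and complex V, the ATP synthase, uses the proton gradient to make ATP. Some subunits are encoded in mitochondrial DNA and the others in the nucleus. Cytochrome c also triggers apoptosis when it leaves the mitochondria.

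The labels were checked first. Egr1 read 1757, 1696 and 1221 on the arrays labelled double knockout, against 508, 509 and 455 on the wild type arrays. It was therefore higher where the label says it was deleted, by 1.60 (SE 0.24, limma adjusted p = 0.00312). The sources used here do not say where this probe set lies relative to the deleted part. The brighter Egr3 probe set had 34.4, 45.8 and 32.9, against 92.2, 83.1 and 30.8, with a change of -0.59 (SE 0.32, limma adjusted p = 0.368), and wild type replicate 3 lay below the labelled knockouts. Directions below therefore hold for arrays labelled double knockout. The brightest of 27 control probe sets for bacterial transcripts, a guide to background, read between 19.0 and 29.9 on the 6 arrays.

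Several arrays stood apart. The summed intensity of 14 granulocyte markers was 20624 to 30056 on the arrays labelled double knockout, against 12340, 27492 and 373 on wild type replicates 1, 2 and 3, and 0 of the 13 tested markers passed. The sum of 6 erythroid markers was 342 to 442, against 440, 54.9 and 3852, with Epb42 and Rhag under the brightest control on all arrays. Natural killer cell markers (7 of 8 on the array) summed to 2159 to 3823, against 444 to 679. Of the 6 tested, Nkg7, Gzmb and Klrd1 were higher. The other 3, Prf1 (0.35), Eomes (-0.17) and Klrk1 (-0.01), did not pass, and Ncr1 was under the brightest control throughout. B cell markers (9 of 10) summed to 2461 to 2928, against 1103 to 2047. Most of this was Cd79b, which was higher, with 1782, 1922 and 1816, against 571, 959 and 1081. Of the 8 tested B cell markers the other 7 did not pass, and 4 of the 8 were negative. Thymic epithelium markers (8 of 8) summed to 1265 to 3293, against 520 to 2158, and macrophage and dendritic markers (11 of 11) to 1925 to 2332, against 1039 to 2976. Markers of double negative thymocytes (11 of 12) summed to 29666 to 31508, against 43286 to 55209, with Ptcra, Il2ra and Dntt lower. Of the coreceptor genes, Cd4 was under the brightest control on every array, while Cd8a and Cd8b1 were above it on every array. Cd8a read 68.5, 80.6 and 85.9, against 197, 93.7 and 82.9. Cd8b1 read 137, 65.9 and 97.7, against 95.7, 70.4 and 119, and neither passed. With 1 array left out, Nkg7, Gzmb and Ptcra passed in all 6 fits and Klrd1 in all but that without labelled double knockout replicate 1 (adjusted p = 0.0544). Il2ra missed the threshold without labelled double knockout replicate 1 or 2 or wild type replicate 2 (up to 0.0699), and Cd79b and Dntt passed only without wild type replicate 3 (otherwise up to 0.176 and 0.161). The Y-linked gene Eif2s3y read 199, 265 and 186, against 476, 13.2 and 0.625. The brightest Xist probe set read 4798, 6015 and 3910, against 1439, 3977 and 5311. Wild type replicate 1 and all labelled knockouts thus carried signal of both kinds. On wild type replicates 2 and 3 Eif2s3y was under the brightest control. Sex-linked signal therefore was not balanced between the groups. Whether an array held RNA of more than the labelled 1 animal was not tested. The actin 3′ to 5′ ratio, a sign of RNA quality, was 5.99, 4.98 and 6.35, against 8.94, 5.55 and 5.64. The Gapdh ratio was 5.27, 8.56 and 4.95, against 10.1, 4.83 and 7.36, so that labelled double knockout replicate 2 was highest of its group by Gapdh and lowest by actin. The part of each of these in the results below was not tested. In bulk samples, fewer cells of a type and less RNA per cell cannot be told apart.

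Respiratory chain genes that passed the test were all lower on the arrays labelled double knockout. Of 88 tested genes, 7 fell and 0 rose. The 7 were cytochrome c (Cycs), 4 accessory subunits of complex I (Ndufa12, Ndufab1, Ndufc1 and Ndufs5), the complex I assembly factor Ndufaf4 and the c subunit gene Atp5g1 of complex V. That is 7.95% of the respiratory chain genes, beside 2.54% of all 13187 genes tested that fell and 3.72% that rose. At an unadjusted p under 0.05, 16 were lower and 3 higher. A change here is the difference between the group means of log2(intensity + 16), labelled double knockout minus wild type, and a gene is represented by its brightest probe set, with p-values from limma adjusted over all 27022 probe sets tested.

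The other 81 genes did not pass, and most changes were small. The median change over the 88 genes was -0.15, beside -0.01 over all genes, and 63 of 88 were negative (71.6%, beside 51.0% of all genes). For 66 of the 88 the change lay within 0.5 in either direction. The median SE was 0.23, and a gene that missed the threshold is not shown to be unchanged. The median member gene stood at percentile 97.2 of signal among all probe sets tested. Among the 347 genes at least as bright as the median structural subunit, 15 fell (4.32%), 10 rose, 56.2% were negative and the median change was -0.05. The 347 include the brighter member genes themselves. Of the 73 structural subunits themselves, 5 fell, 54 were negative and the median was -0.15. The groups did not overlap in 23 of the 88 genes (21 lower, 2 higher). As a share without regard to direction this equals the 26.1% seen over all genes, of which 1682 were lower and 1761 higher. Of 179 tested probe sets, 14 fell and 1, for Cox7a2l, rose, beside 2.11% and 2.91% of all 27022. The genes Cox7b2, Cox8b and Ndufa4l2, and the 1 probe set that lists Ndufb4 alone, were too dim to test and lay under the brightest control on all 6 arrays. Brighter probe sets list Ndufb4 together with Ndufb4b and Ndufb4c, and these genes cannot be told apart on them. One is among the 14, with 1693, 1276 and 2576 on the arrays labelled double knockout, against 4960, 3822 and 2916 on the wild type arrays (-1.11, SE 0.29, limma adjusted p = 0.0491). It passed in 6 of 15 alternatives and, with 1 array left out, only without labelled double knockout replicate 3 or wild type replicate 3 (adjusted p otherwise up to 0.189). The other changed by -1.23 (limma adjusted p = 0.108).

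**Figure D1:**
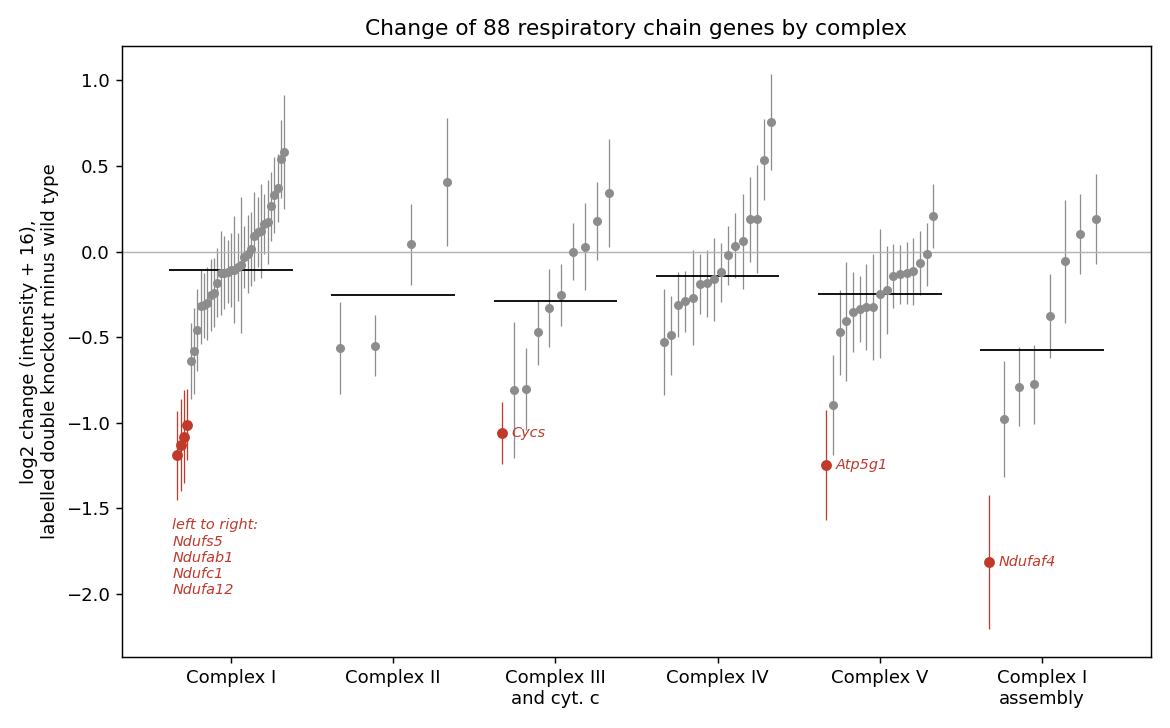
Change of each of the 88 tested respiratory chain genes, labelled double knockout minus wild type on the log2(intensity + 16) scale, by complex. Points are genes with their moderated SE, red points passed the test, and black lines are the medians of the groups. The 7 red genes all lie at or below -1.01.

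Of the 7 genes, judged by their brightest probe sets, only Cycs passed whichever array was left out. A second Ndufaf4 probe set passed in 5 of these 6 fits. These fits have fewer arrays, and the share of all genes that fell was lower too, except without wild type replicate 3. Without labelled double knockout replicate 1 or 2, or without wild type replicate 1 or 2, only Cycs remained lower among the respiratory chain genes. Over all genes the share that fell was then 0.576%, 0.923%, 1.24% and 0.881%. Without labelled double knockout replicate 3, 5 genes were lower, Cycs and the 4 complex I subunits, beside 1.16% of all genes. Without wild type replicate 3, the array with the most erythroid and least granulocyte signal, 8 were lower, all 7 and Ndufaf6, and Cox6b2, Cox7a2l, Ndufa3 and Ndufs4 were higher, beside 5.99% of all genes lower and 6.44% higher. The median change of the 88 genes ranged between -0.25 and -0.05 over these 6 fits, nearest to 0 without labelled double knockout replicate 2.

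**Figure D2:**
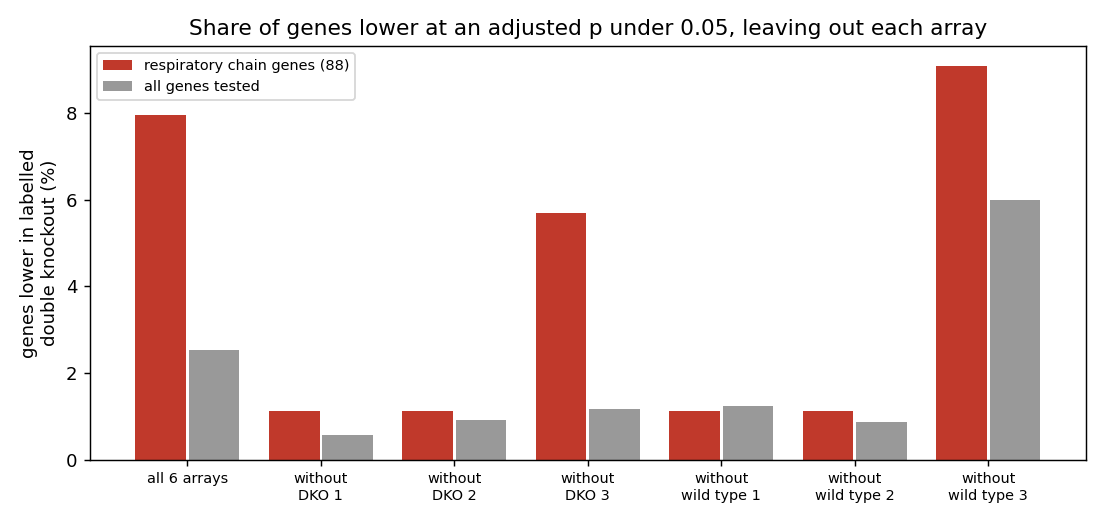
Share of genes lower on the arrays labelled double knockout with all 6 arrays and with each array left out, as bars from 0, for respiratory chain genes (red) and all genes tested (grey). The red bar is 7.95% with all arrays and stands for Cycs alone in 4 of the 6 fits that leave an array out.

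Cycs, which encodes the cytochrome c of somatic tissues, fell on 3 probe sets. The brightest read 7139, 6729 and 7080 on the arrays labelled double knockout, against 15761, 11372 and 16694 on the wild type arrays. The labelled knockouts were nearly alike and lay far under the lowest wild type array (6983 ± 222 and 14609 ± 2841, SD, n = 3 each). The change was -1.06 (SE 0.18, limma adjusted p = 0.00648). A second probe set read 1978, 2435 and 1716, against 6226, 4461 and 7630, a change of -1.57 (SE 0.23, limma adjusted p = 0.00287). The third read 871, 827 and 860, against 4290, 2681 and 2546, a change of -1.85 (SE 0.24, limma adjusted p = 0.0014). None of the 3 overlapped between groups. A dim one, above the brightest control on 1 of 6 arrays, changed by -0.52 (SE 0.27, limma adjusted p = 0.337). The brightest probe set passed in all 17 alternative fits that include it, with an adjusted p of at most 0.0452, and the other 2 in all 15 of theirs. Cycs has processed pseudogenes, and the sources used here do not say which probes these could share.

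The promoters of Cycs, Ndufa12 and Ndufaf4 are shown because these are the 3 member genes of smallest p. Each runs from 250 bases before to 50 bases after the RefSeq start in GRCm38.p6, 5′ to 3′ on the gene's strand. Capitals mark the single exact match to the site of NRF1, a factor known to act on many nuclear respiratory genes, searched on both strands as GCGCATGCGC or GCGCCTGCGC.
Cycs, chr6:50566520-50566819, minus strand: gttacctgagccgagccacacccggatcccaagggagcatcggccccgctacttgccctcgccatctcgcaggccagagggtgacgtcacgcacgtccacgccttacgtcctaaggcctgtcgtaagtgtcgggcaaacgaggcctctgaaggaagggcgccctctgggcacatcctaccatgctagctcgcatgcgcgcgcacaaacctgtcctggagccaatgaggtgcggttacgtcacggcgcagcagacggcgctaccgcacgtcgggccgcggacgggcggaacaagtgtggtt
Ndufa12, chr10:94198785-94199084, plus strand: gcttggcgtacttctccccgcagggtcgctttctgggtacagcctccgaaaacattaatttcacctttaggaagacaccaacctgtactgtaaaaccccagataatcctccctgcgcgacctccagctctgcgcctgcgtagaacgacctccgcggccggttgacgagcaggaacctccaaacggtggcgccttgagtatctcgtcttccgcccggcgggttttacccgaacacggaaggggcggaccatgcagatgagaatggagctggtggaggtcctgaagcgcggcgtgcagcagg
Ndufaf4, chr4:24897833-24898132, plus strand: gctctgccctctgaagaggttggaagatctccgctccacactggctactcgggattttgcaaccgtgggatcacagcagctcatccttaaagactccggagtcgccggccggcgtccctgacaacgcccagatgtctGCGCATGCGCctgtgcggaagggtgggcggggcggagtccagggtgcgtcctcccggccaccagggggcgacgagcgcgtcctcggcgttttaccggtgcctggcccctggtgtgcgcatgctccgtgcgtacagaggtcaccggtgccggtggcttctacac

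In the Ndufaf4 promoter the match starts 113 bases before the gene start. With 1 mismatch allowed, a search added after the exact one, the Cycs promoter holds tcgcatgcgc from 62 bases before the start and the Ndufa12 promoter gcgcctgcgt from 120 bases before it. An NRF1 site is known in the cytochrome c promoter of the rat. The promoters of Cycs and Ndufa12 hold no exact match in this window to any of the 5 motifs, of which the other 4 were the ETS site CCGGAAG, the YY1 site ATGGCGG, the EGR site GCGTGGGCG and the E-box CACGTG. Promoters were found for 72 of the 88 genes. The exact NRF1 site was in 10 of them (13.9%), beside 6.92% of the 10604 genes with a promoter among all genes tested. With 1 mismatch allowed it was in 26 (36.1%), beside 23.1%. The ETS site was in 26.4%, beside 18.7%, and the YY1 site in 15.3%, beside 8.67%. For the EGR site the shares were 1.39%, 1 promoter, beside 1.37%, and for the E-box 8.33%, beside 11.1%. Of the 7 genes that fell, Ndufaf4 and Ndufs5 hold the exact NRF1 site, which becomes 5 genes with 1 mismatch allowed, Atp5g1 the E-box, and none the ETS, YY1 or EGR site. These matches describe letters in a window and not binding.

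The complex I subunits that passed were all accessory subunits, which surround the catalytic core and are needed to assemble or stabilise it. Of 33 tested complex I subunits 4 fell (12.1%, beside 2.54% of all genes), 0 rose, 22 were negative and the median change was -0.11. Ndufa12 read 3775, 3158 and 4472 on the arrays labelled double knockout, against 8954, 6975 and 6776 on the wild type arrays, with a change of -1.01 (SE 0.21, limma adjusted p = 0.0174). Its second probe set read 3388, 2609 and 4107, against 8643, 6576 and 7064 (-1.17, SE 0.22, limma adjusted p = 0.0109). All labelled knockouts lay under all wild type arrays on both. Its dimmest probe set changed by -0.55 (SE 0.21, limma adjusted p = 0.176).

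Ndufs5, a small subunit on the intermembrane side, read 167, 151 and 219 on the arrays labelled double knockout, against 526, 399 and 352 on the wild type arrays (-1.19, SE 0.26, limma adjusted p = 0.0227). Ndufab1, the mitochondrial acyl carrier protein, which also serves fatty acid and lipoic acid synthesis, read 604, 478 and 871, against 1504, 1467 and 1200 (-1.13, SE 0.27, limma adjusted p = 0.0339). Ndufc1, a membrane subunit, read 2466, 1596 and 2993, against 6288, 4420 and 3914 (-1.08, SE 0.27, limma adjusted p = 0.0436). In each of these genes the labelled knockouts lay under the wild type arrays without overlap, with labelled double knockout replicate 2 the lowest. The other Ndufc1 probe set changed by -0.81 (limma adjusted p = 0.191). The next brightest Ndufab1 probe set changed by -0.76 (limma adjusted p = 0.129), and a bright one that also lists the pseudogene Ndufab1-ps by -1.06 (limma adjusted p = 0.0569). The 3 others, at 0.19, 0.52 and -0.03, lay near background, above the brightest control on 4, 2 and 1 of 6 arrays. A probe set that lists Ndufs5 with its pseudogene Ndufs5-ps changed by -0.41 (limma adjusted p = 0.409). With the mean of all tested probe sets of a gene, dim ones included, Ndufab1 changed by -0.24 (limma adjusted p = 0.513) and Ndufc1 by -0.94 (limma adjusted p = 0.0826). Ndufc1 also missed the threshold without the filter, without the trend or with an offset of 1 (adjusted p up to 0.0818), and Ndufa12 without the trend (0.0504). By their brightest probe sets, all 4 complex I genes missed the threshold when labelled double knockout replicate 1 or 2 or wild type replicate 1 or 2 was left out. The adjusted p was then up to 0.0969 for Ndufa12, 0.135 for Ndufs5, 0.163 for Ndufab1 and 0.159 for Ndufc1, while changes stayed between -1.36 and -0.80. The second Ndufa12 probe set passed in 13 of 15 alternatives. It missed the threshold only without labelled double knockout replicate 1 or wild type replicate 1 (adjusted p up to 0.0640).

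The other complex I subunits ranged between -0.64 for Ndufa5 and 0.58 for Ndufs4, and none passed. The 6 core subunits tested, which carry the flavin, the iron-sulfur clusters or the quinone site, had changes between -0.46 for Ndufs1 and 0.09 for Ndufs3. Ndufa1, the brightest complex I gene, read 12138, 12458 and 12461 on the arrays labelled double knockout, against 13030, 9655 and 15448 on the wild type arrays, and the groups overlapped (-0.03, SE 0.18, limma adjusted p = 0.949). Ndufb10 lay without overlap above wild type, with 4920, 3487 and 5808 on the arrays labelled double knockout, against 3353, 2836 and 3264 (0.54, SE 0.23, limma adjusted p = 0.225). Ndufb10 is named here after its values were seen.

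**Figure D3:**
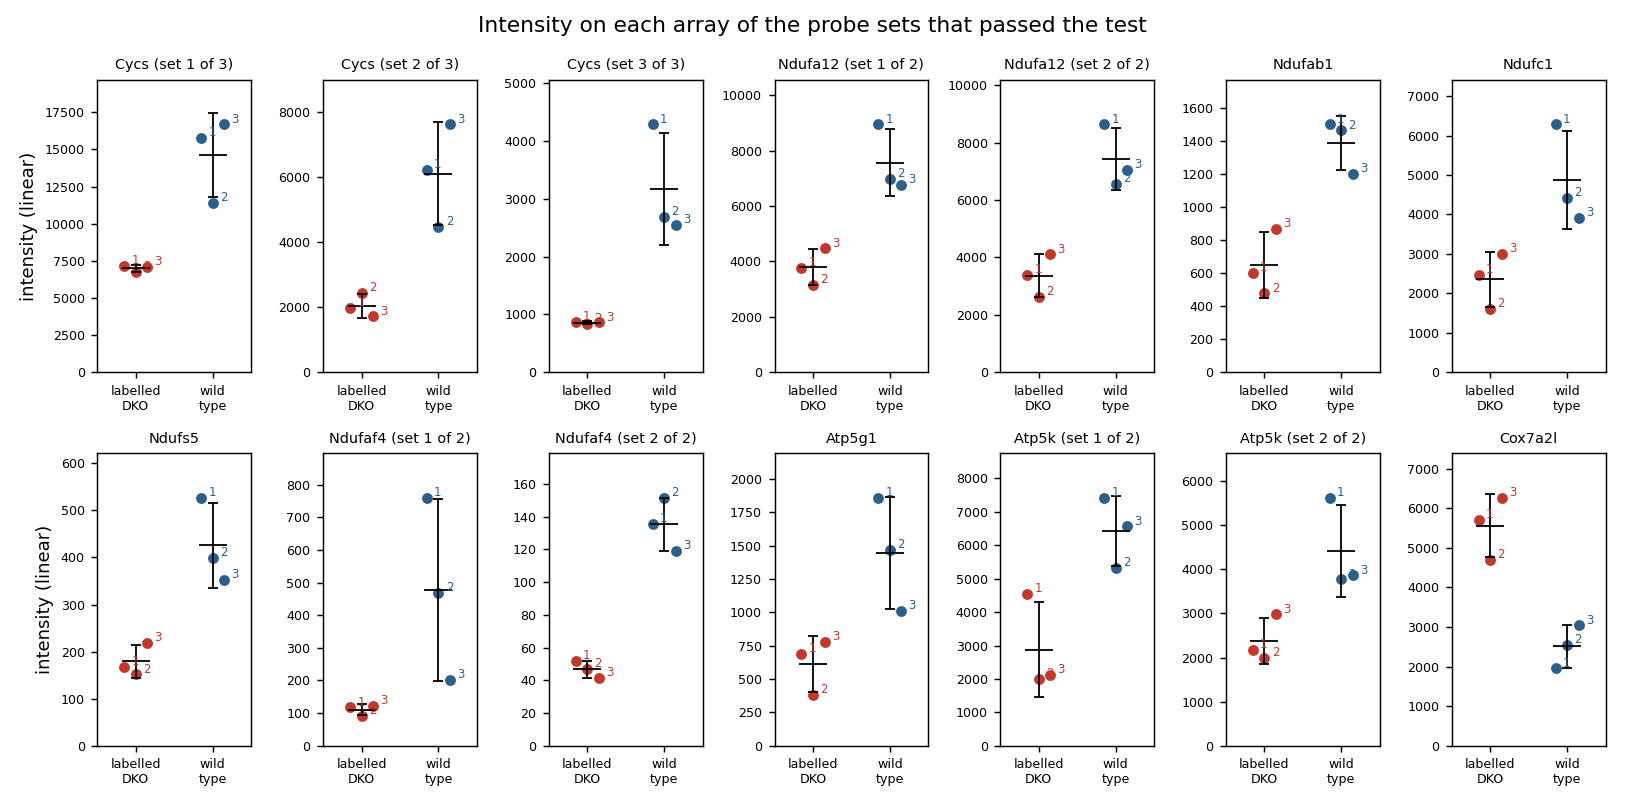
Linear intensity on each array for the 14 probe sets with 1 symbol that passed the test, 13 lower and 1 higher. Points are arrays with replicate numbers, lines are the mean and bars the SD of 3 arrays. The groups do not overlap in any panel, and the labelled double knockouts are below wild type in all but Cox7a2l.

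Assembly factors of complex I help build the complex without staying in it. Of the 8 whose symbol starts with Ndufaf, 1 fell, 0 rose, 6 were negative and the median change was -0.58. Ndufaf4 read 117, 90.6 and 122 on the arrays labelled double knockout, against 759, 468 and 202 on the wild type arrays (-1.81, SE 0.39, limma adjusted p = 0.022). Wild type spread widely, but its lowest array, replicate 3, still lay above the labelled knockouts. A second Ndufaf4 probe set read 51.6, 47.1 and 41.5, against 135, 151 and 119 (-1.28, SE 0.24, limma adjusted p = 0.00951). The first missed the threshold in each fit that left out an array other than wild type replicate 3 (adjusted p up to 0.101). The second missed it without labelled double knockout replicate 1 alone (adjusted p = 0.0501). Ndufaf8, the brightest of these factors, read 1449, 1099 and 1540, against 2287, 1969 and 2681, without overlap (-0.78, SE 0.23, limma adjusted p = 0.0813). Ndufaf2 at -0.98 (limma adjusted p = 0.132) and Ndufaf6 at -0.79 (limma adjusted p = 0.076) also did not pass.

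In complex II, 0 of 4 subunits passed. Sdhb, the iron-sulfur subunit and the brightest of the 4, read 4652, 4545 and 4661 on the arrays labelled double knockout, against 6546, 6176 and 7397 on the wild type arrays. The groups did not overlap, and the change was -0.55 (SE 0.18, limma adjusted p = 0.106). Sdhc, a membrane anchor, read 399, 279 and 379, against 502, 634 and 431 (-0.56, SE 0.27, limma adjusted p = 0.288). Sdha, the flavoprotein, was at 0.04 and Sdhd, the other anchor, at 0.40.

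Among the 9 subunits of complex III none passed, 6 were negative and the median change was -0.25. Uqcrb, a subunit near the quinone site and the brightest, read 21401, 22763 and 19938 on the arrays labelled double knockout, against 22914, 16601 and 24609 on the wild type arrays, which spanned them (0.00 in size, SE 0.17). Its other probe set was at -0.47 (SE 0.21, limma adjusted p = 0.259). The largest changes were those of the small subunits Uqcr10 (-0.81, limma adjusted p = 0.306) and Uqcrq (-0.80, limma adjusted p = 0.0787). Cyc1, the cytochrome that donates electrons to cytochrome c, was at -0.47 (limma adjusted p = 0.202). The core proteins Uqcrc1 and Uqcrc2 were at 0.03 and -0.25, and the Rieske protein Uqcrfs1 at 0.18.

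Complex IV had no gene that passed among 16, counted with its tissue isoforms and Cox7a2l, and its median change was -0.14. Cox5b, a zinc-binding subunit and the brightest, read 16537, 15998 and 15261 on the arrays labelled double knockout, against 16806, 12613 and 19183 on the wild type arrays (-0.02, SE 0.17). Ndufa4, named for complex I but since assigned to complex IV, read 2175, 1221 and 2385, against 2456, 2199 and 1991 (-0.27, SE 0.28, limma adjusted p = 0.669). The 10 subunits without tissue restriction lay between -0.49 for Cox7c, whose probe set was dim, and 0.19 for Cox8a. Probe sets of Cox5a, the subunit that pairs with Cox4, ran from -0.29 on the brightest through -0.49 to -0.78 on the dimmest.

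Several complex IV subunits come as a widespread form and a form of muscle, lung or testis. Cox4i1 read 11443, 9951 and 12442 on the arrays labelled double knockout, against 12220, 8368 and 12412 on the wild type arrays (0.04, SE 0.19). Its lung form Cox4i2 read 20.9, 39.9 and 14.8, against 10.4, 19.7 and 27.7, and was above the brightest control on 2 of 6 arrays. Cox6a1 was at -0.19 (SE 0.17, limma adjusted p = 0.626), with a second probe set at -0.76 (limma adjusted p = 0.108), and the muscle form Cox6a2 at 0.06. Cox6b1 was at -0.12. The testis form Cox6b2 had the smallest p of complex IV and a positive change, with 311, 320 and 383, against 162, 145 and 288, which did not overlap (0.76, SE 0.28, limma adjusted p = 0.162). The muscle form Cox7a1 read 119, 83.9 and 135, against 161, 106 and 254 (-0.53), and the widespread Cox7a2 was at -0.18. Cox8a was at 0.19 and the testis form Cox8c at -0.16.

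Cox7a2l, which joins complexes III and IV in supercomplexes, gave the only member probe set that rose. It had 5715, 4691 and 6259 on the arrays labelled double knockout, against 1956, 2557 and 3039 on the wild type arrays, without overlap (1.13, SE 0.23, limma adjusted p = 0.017). A brighter probe set, which represents the gene, read 15581, 19645 and 14657, against 9156, 9007 and 17116 (0.54, SE 0.24, limma adjusted p = 0.246). Another read 11672, 14140 and 10946, against 6422, 6824 and 13572 (0.52, SE 0.26, limma adjusted p = 0.317). On both, wild type replicate 3 lay among the labelled knockouts and the other wild type arrays below them. Without wild type replicate 3 the brightest changed by 0.83 (limma adjusted p = 0.00732). The probe set that rose missed the threshold without labelled double knockout replicate 1 or 3 or wild type replicate 1 or 2 (adjusted p up to 0.119).

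**Figure D4:**
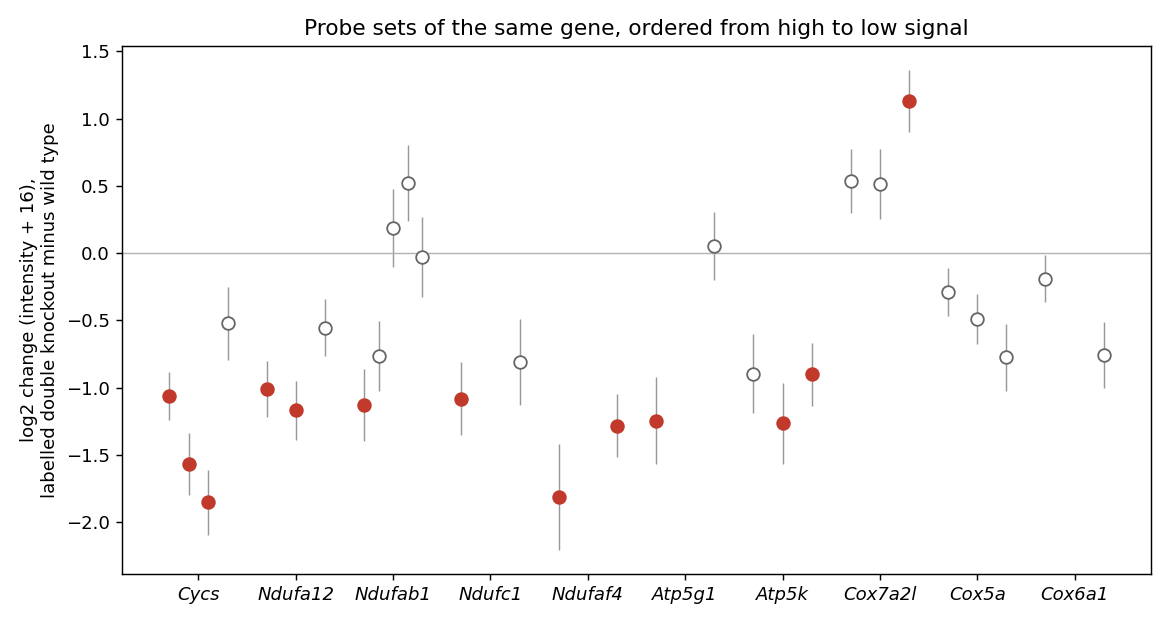
Change on each tested probe set of 10 member genes, ordered within a gene from high to low signal, labelled double knockout minus wild type on the log2(intensity + 16) scale. Points carry the moderated SE and filled points passed the test. The 3 bright Cycs probe sets all passed, and the Ndufab1 probe sets above 0 are near background, with a signal above the brightest control on 4 of 6 arrays or fewer.

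Complex V leaned lower with 1 gene that passed. Of 17 genes 1 fell, 0 rose, 16 were negative and the median change was -0.25. Without labelled double knockout replicate 2 the negatives were 12 of 17 and the median -0.09. Without wild type replicate 3 the negatives were also 12 of 17, but the median was -0.28. Atp5g1, Atp5g2 and Atp5g3 encode the same mature c subunit, which forms the rotor ring. Atp5g1 read 687, 380 and 781 on the arrays labelled double knockout, against 1857, 1468 and 1013 on the wild type arrays, without overlap (-1.25, SE 0.32, limma adjusted p = 0.0482). It missed the threshold in each fit that left out an array other than wild type replicate 3 (adjusted p up to 0.164). It also missed it without the filter, without the trend or with an offset of 1 (adjusted p up to 0.0721). With the mean of its tested probe sets, of which the other lay near background at 0.05, it changed by -0.60 (limma adjusted p = 0.192). Atp5g2 read 2309, 1237 and 3210, against 3428, 3119 and 1947, which overlapped (-0.41, SE 0.35, limma adjusted p = 0.588). Atp5g3, the brightest gene of complex V, read 12158, 11265 and 10902, against 12207, 10009 and 15318 (-0.13, SE 0.18, limma adjusted p = 0.773). The difference between the 3 genes' changes was not tested.

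Atp5k, the e subunit, which lies where ATP synthases pair in the membrane, had probe sets on both sides of the threshold. Its brightest read 3852, 2222 and 4943 on the arrays labelled double knockout, against 8499, 5627 and 5556 on the wild type arrays (-0.90, SE 0.29, limma adjusted p = 0.11). A second read 4535, 1992 and 2113, against 7414, 5322 and 6568 (-1.27, SE 0.30, limma adjusted p = 0.0339), and another 2177, 1993 and 2979, against 5616, 3771 and 3864 (-0.90, SE 0.24, limma adjusted p = 0.0498). None of the 3 overlapped between groups. The second passed in 8 of 15 alternatives and the last in 3 of 15. Both missed the threshold without labelled double knockout replicate 2 or 3 and without wild type replicate 1 or 2. The catalytic subunit Atp5b was at -0.23 and Atp5a1, the only positive gene of complex V, at 0.21.

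The complexes were also set side by side array by array, as the mean deviation of a complex's genes from each gene's mean over 6 arrays. Over all 88 genes this was -0.03, -0.31 and -0.00 (log2) on labelled double knockout replicates 1, 2 and 3, against 0.12, 0.01 and 0.21 on wild type replicates 1, 2 and 3. Over all genes tested it was 0.04, -0.04 and 0.03, against -0.03, 0.06 and -0.06. The low value came mainly from labelled double knockout replicate 2, which was the lowest of its group in 66 of 88 genes, beside 44.8% of all genes and 52.4% of the 347 bright ones. For complex V the values were -0.06, -0.45 and 0.05, against 0.22, 0.06 and 0.18. The assembly factors spread least of these groups among the labelled knockouts, with -0.22, -0.30 and -0.33, against 0.19, 0.22 and 0.43. Complex IV differed least between groups, with 0.04, -0.15 and 0.04, against 0.03, -0.12 and 0.16.

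**Figure D5:**
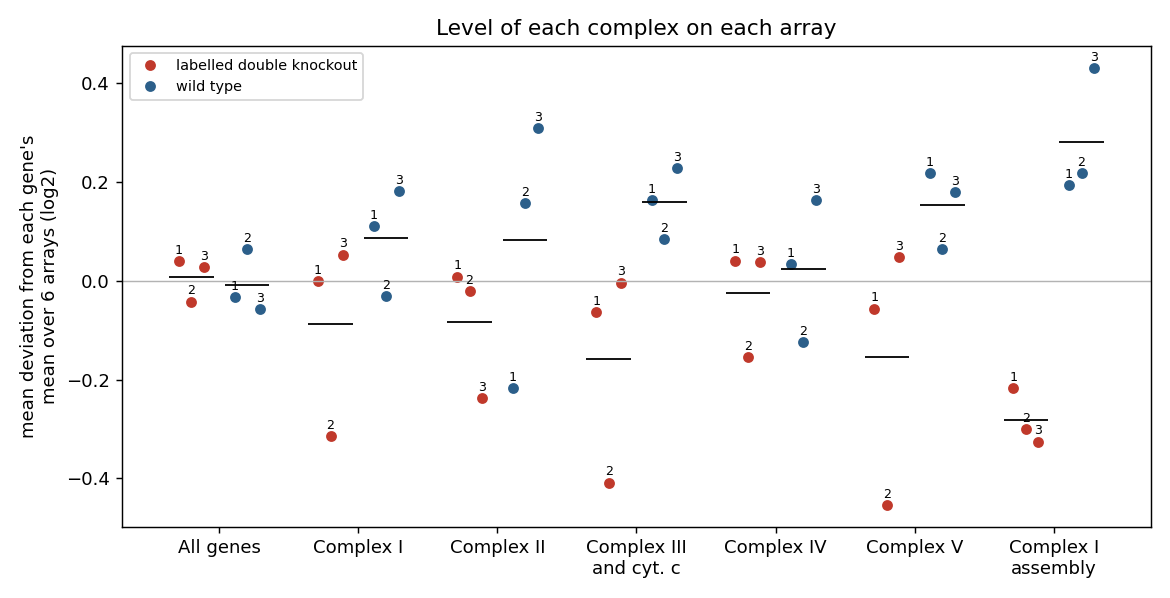
Mean deviation (log2) of the genes of each complex from each gene's mean over 6 arrays, for labelled double knockout (red) and wild type (blue) arrays with replicate numbers, with group means as lines. Labelled double knockout replicate 2 is the lowest array for complexes I, III, IV and V, while the 3 labelled knockouts lie together for the assembly factors.

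Other genes of the pathway were taken from fixed lists, and their counts stand beside 2.54% of all genes lower and 3.72% higher. Nothing is read from a list with 1 call. Of assembly factors, 1 of 17 for complex I fell (Ndufaf4, with 8 of the 17 also counted above), 0 of 4 for complex II and 0 of 19 for complex IV. For complex III 1 of 6 fell, the assembly factor Uqcc2 (-0.97, SE 0.25, limma adjusted p = 0.0456), and for complex V 1 of 6, the assembly factor Fmc1 (-1.28, SE 0.25, limma adjusted p = 0.0126). None of these assembly factors rose. Of the 3 supercomplex factors 1 fell, Higd1a (-0.88, SE 0.21, limma adjusted p = 0.0375). Of 19 genes that express mitochondrial DNA 1 fell, Fastkd2, a mitochondrial RNA-binding protein (-1.42, SE 0.33, limma adjusted p = 0.0291). The 6 tested adenine nucleotide and phosphate carriers had 0 calls, and subunits encoded in mitochondrial DNA were not analysed here.

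Among 10 nuclear regulators of respiratory genes, 2 fell and 0 rose. Myc, a growth regulator, changed by -1.86 (SE 0.25, limma adjusted p = 0.00179). Pprc1, a coactivator of the family of PGC-1, changed by -1.63 (SE 0.26, limma adjusted p = 0.00465). Both passed in all 6 fits that leave out an array, with adjusted p up to 0.0179 and 0.0265. The other 8 did not pass, and 8 of the 10 were negative. Nrf1, the gene of the factor whose site was searched above, changed by 0.01 (SE 0.39, limma adjusted p = 0.991). Of 18 genes of coenzyme Q synthesis and electron input 1 fell and 2 rose. Coq4, needed for coenzyme Q synthesis, changed by -1.62 (SE 0.27, limma adjusted p = 0.00593) and passed in all 6 such fits. Sqor, which oxidises sulfide and feeds electrons to coenzyme Q, changed by 1.54 (SE 0.27, limma adjusted p = 0.0072), and missed the threshold without labelled double knockout replicate 1 (adjusted p = 0.0601). Etfdh, which feeds in electrons from fatty acid oxidation, changed by 0.95 (SE 0.24, limma adjusted p = 0.046). Etfdh, Uqcc2 and Higd1a passed only without wild type replicate 3 among these fits, with adjusted p otherwise up to 0.194, 0.146 and 0.134. Fmc1 missed the threshold without labelled double knockout replicate 1 or 2 (up to 0.0894), and Fastkd2 without either of these or wild type replicate 1 or 2 (up to 0.125).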

How the data were processed

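Single-colour arrays of 6 samples were used, grouped by the sample labels. The deposited values are linear intensities per probe set, per the file headers. Which scanner software and probe summary were used was not given in the sources used here. Probe sets were named through a platform annotation of GEO. From 45101 probe sets 64 controls were removed. An offset of 16 was added, log2 taken, and each array centred on its median, since medians differed by 0.126, above a limit of 0.1. The test kept the 27022 probe sets with a mean log2 value at or above the 40th percentile (4.87, which is an intensity of 13.2). limma 3.58.1 in R 4.3.3 (lmFit, eBayes with trend) was used with Benjamini-Hochberg adjustment at 0.05. Because of the offset of 16, the log2 change understates changes of dim genes.

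Named genes were, per complex, up to 4 of smallest p past the threshold in each direction (or the 2 of smallest p) and the brightest, every call of at least 1, the isoform families and genes whose probe sets disagree. Other lists gave up to 3 genes each. Members and lists were chosen with earlier results of these data known. The descriptions number 1 animal for each array, a point that sex-linked signals do not settle, and the number of arrays limits the precision. Samples with the same number did not deviate together (correlations -0.05, -0.13 and -0.29), so they were not treated as pairs. Alternatives were other offsets, filters, normalizations and probe set rules, no trend, array weights, a replicate block and each array left out. A promoter search with 1 mismatch was added after seeing the data. Promoters are from RefSeq.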

Additional observations from a re-analysis of the deposited data

How the results depend on the processing

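With all 6 arrays 7 member genes were lower and 0 higher, 14 member probe sets lower and 1 higher, and 1358 of all probe sets changed. Leaving out 1 array gave 1 to 8 member genes lower and 0 to 4 higher, 4 to 21 member probe sets lower and 0 to 6 higher, and 376 to 2744 probe sets changed over the array. Array weights gave 12 genes lower and 4 higher, beside 6.79% of all genes lower, 23 and 8 member probe sets, and 3417 changed probe sets. With the replicate number as a replicate block these were 2 genes lower, 7 member probe sets lower and 0 higher, and 573 changed, and the numbers do not pair the samples. Without an intensity trend 4 genes and 8 member probe sets were lower, and without the filter 9 member probe sets. The share of all genes that fell moves with the setting. It is not given here for these last fits, so their counts are not read on their own. The median change stayed negative in all alternatives run, within the spread between arrays. Among named genes and probe sets, 68 values missed the threshold that they passed with all arrays, 8 passed it that had not, and 0 that were past it in either fit turned direction. Another 22 values, of 9 genes past it in neither fit, changed sign, each at most 0.144 in size. Dim forms such as Cox4i2 have signal near the controls, which limits what can be said of them. The causes of these shifts were not tested.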

Other observations

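Among the 33 member genes with several probe sets of an intensity of at least 1000, the probe set of highest signal had the smaller change than that of lowest signal in 21 (63.6%), beside 227 of 373 over all genes (60.9%). The brightest and dimmest probe sets had the same sign in 25 of the 33, beside 323 of 373 over all genes.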
